A study of Rattus norvegicus with 26 samples.

Results

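The expression of Mki67 and of other genes of cell proliferation was examined in the dentate gyrus (DG) of rats treated with the chemotherapy drug doxorubicin (Dox), with or without the senolytic ABT-263. The genes were a list of 10, Mki67, Pcna, Mcm2, Mcm3, Mcm5, Mcm6, Ccnd1, Ccnd2, Cdk1 and Cdk4, and rows of the normalized count table that carried these symbols were summed by gene ID. Of the 10 genes, 9 were found among the 17910 genes measured, and Cdk1 was not analysed here. All 9 passed the filter on low values, a mean of 5 or more normalized counts, as did 15595 genes in all. Mki67 was chosen by its difference between Dox and Veh in these same rats, so its levels are given as a description with no test, and the tests concern the other 8 genes. The DG was taken from 26 male F344 rats, treated from 6 months of age, which formed 3 groups with 1 library per rat. The 10 Veh rats received vehicle and were part of an ongoing study of senolytics and brain aging, the 8 Dox rats received Dox by intraperitoneal injection once a week for a month, and the 8 Dox + ABT rats received the same Dox course together with ABT-263, which blocks anti-apoptotic proteins related to BCL-2, by oral gavage. All rats went through behavioral testing, and tissue was collected weeks after the last Dox injection.

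The DG is 1 of the few regions of the adult mammalian brain in which neural progenitors continue to divide, and its subgranular zone produces granule neurons throughout life. Ki-67, the product of Mki67, coats mitotic chromosomes and is present in cycling cells of all kinds and lost from resting cells, which is why it is used to count dividing cells. Division starts when D cyclins and their kinase partner Cdk4 inactivate the retinoblastoma proteins. The E2F factors that are freed drive the genes of DNA replication, among them the Mcm helicase subunits and Pcna, the sliding clamp of the polymerases, while a later set that is regulated through CHR elements carries cells through mitosis. Doxorubicin blocks topoisomerase II and breaks DNA, and p21, the product of Cdkn1a, is the inhibitor through which p53 halts the cycle after such damage. In whole tissue, fewer cells of a type and less RNA per cell cannot be told apart.

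Estimated reads per library ranged from 10166095 to 24326700, with a median of 16344122, and the group medians were 16702310 (Veh), 15654309 (Dox rats) and 15120667 (Dox + ABT rats). Markers of dentate granule neurons were present in every library, with 8 of 10 listed markers tested and a summed level of 11676 to 18361 normalized counts. Libraries were of unlike make-up, both within groups and, in part, between them. Transcripts of 85 ribosomal protein genes took 0.645% to 2.16% of normalized counts. At a split of 1.3%, the share was high in 6 of 10 Veh, 3 of 8 Dox and 1 of 8 Dox + ABT libraries, so it moved with group. Dox rats 1 and 2 stood apart on the third principal component of within-group deviations, at -25.6 and -29.3 while the other 24 rats lay between -17.0 and 27.7. For 6.43% of tested genes both of these rats lay above all other 24, and for 4.71% both lay below. Transcripts of 13 mitochondrial genes also differed in share between groups, with medians of 12.9% (Veh), 7.71% (Dox) and 8.27% (Dox + ABT) and a range of 6.05% to 17.1% over all rats, and the part of this share in the results was not tested. For the listed genes, results that rest on the ribosomal share or on Dox rats 1 and 2 are given with and without them.

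Mki67 was higher in Dox and in Dox + ABT rats than in Veh rats on average, with wide overlap. The lowest, median and highest values were 88.2, 132 and 205 normalized counts in Veh, 131, 220 and 610 in Dox and 124, 215 and 268 in Dox + ABT. In the Dox group the values were 610 in rat 1, 558 in rat 2, 317 in rat 9, 234 in rat 13, 205 in rat 5, 152 in rat 7, 137 in rat 10 and 131 in rat 14. Thus rats 1 and 2 exceeded every other rat of the study, while 4 of 8 Dox rats lay above the highest Veh rat and 4 lay within the Veh range. In the Dox + ABT group 5 of 8 rats exceeded the highest Veh rat.

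The difference in mean log2(value + 1) of Mki67 between Dox and Veh was 0.86 (SE 0.26), or 1.81-fold, and between Dox + ABT and Veh 0.58 (SE 0.26), or 1.49-fold. Between Dox and Dox + ABT it was 0.28 (SE 0.27). Without Dox rats 1 and 2 the difference between Dox and Veh was 0.45, and Dox lay 0.13 below Dox + ABT on the same scale. Mki67 also differed with the ribosomal share of the library. In Veh the 4 libraries with a low ribosomal share held 160 to 205 normalized counts and the 6 with a high share 88.2 to 140, and these ranges did not overlap. With the ribosomal share as a covariate the difference was 0.66 for Dox against Veh and 0.16 for Dox + ABT against Veh. Among low-share libraries alone it was 0.76 and 0.21. Among high-share libraries it was 0.55 for Dox against Veh, from 3 and 6 rats.

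**Figure D1:**
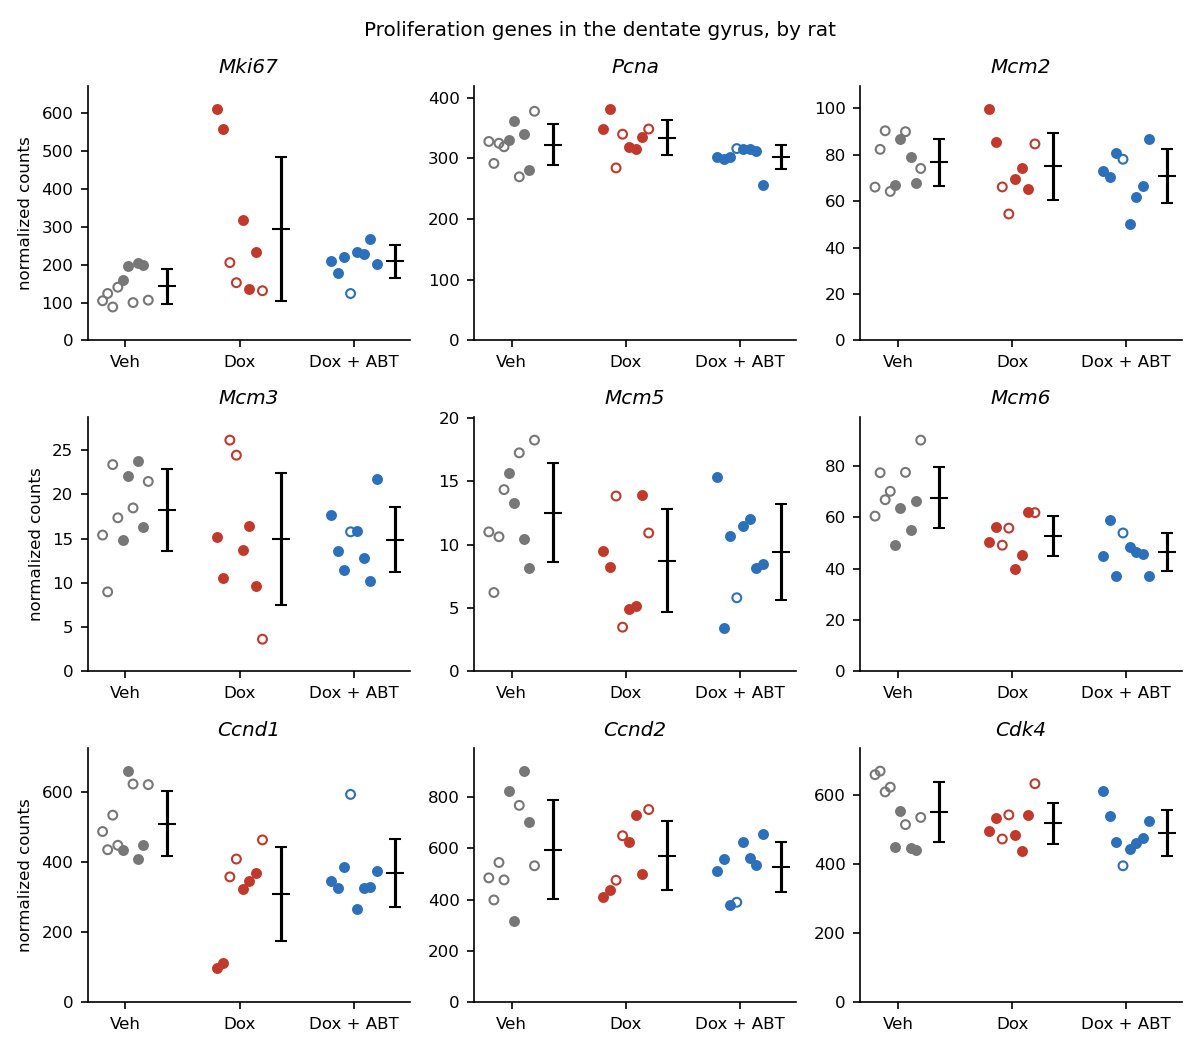
Normalized counts (linear axes from 0) of the 9 measured proliferation genes in 10 Veh, 8 Dox and 8 Dox + ABT rats. Each point is 1 rat, open points are libraries with a high ribosomal share, and bars give the mean and SD. The 2 highest Dox values of Mki67, 610 and 558, and the 2 lowest of Ccnd1, 96.8 and 113, belong to the same rats.

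The listed genes differ in the motifs of their promoters, which is shown here because the genes are often read as 1 programme. RefSeq promoter windows (GRCr8, 250 bases before to 50 after the transcription start) were matched by symbol for 8 of the 10 genes, Ccnd1 and Ccnd2 being the exceptions. An E2F-type motif was searched as TTT, then 2 bases that were each C or G, then CGC, beside the CHR motif TTTGAA and the CCAAT box, all on both strands, with overlapping matches counted. The E2F motif occurred in 2.14% of all 33469 windows and in 5 of the 8, those of Mcm2, Mcm3, Mcm5, Mcm6 and Cdk1. The CHR motif occurred in 18.3% of all windows and in 3 of the 8, and CCAAT in 37.5% and in 6. Mki67 had 2 CHR motifs, starting 117 and 99 bases before the start, and 4 CCAAT boxes, and the E2F letters were not in its window. The stretches around these motifs, on the gene's strand, with CHR motifs in capitals for Mki67 and the most upstream E2F motifs, which overlap on the 2 strands, in capitals for the Mcm genes, are chr1:199952647-199952750 (minus strand) for Mki67, chr4:122918095-122918148 (minus strand) for Mcm2, chr19:13488563-13488651 (plus strand) for Mcm5 and chr13:42404440-42404531 (minus strand) for Mcm6.
Mki67: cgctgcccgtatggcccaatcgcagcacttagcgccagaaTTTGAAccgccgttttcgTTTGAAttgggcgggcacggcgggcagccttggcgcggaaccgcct
Mcm2: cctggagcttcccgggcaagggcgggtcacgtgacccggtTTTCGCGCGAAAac
Mcm5: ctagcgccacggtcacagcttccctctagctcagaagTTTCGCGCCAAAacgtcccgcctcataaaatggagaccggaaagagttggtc
Mcm6: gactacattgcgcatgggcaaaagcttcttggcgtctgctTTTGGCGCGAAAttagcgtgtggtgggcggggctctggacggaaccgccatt

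The rise of the Mki67 mean in Dox was not accompanied by a called rise of any other listed gene. In Dox relative to Veh, 0 of the 8 tested genes were higher at p below 0.01 (limma, unadjusted), while 1.02% of all tested genes were, and 2 of 8, Ccnd1 and Mcm6, were lower, against 1.85% of all tested genes. At an unadjusted p below 0.05 the same 2 genes passed, a threshold that 10.2% of all tested genes passed in either direction. The median log2 difference of the 8 genes was -0.22, and that of all tested genes was 0.00498. Neither gene passed an adjusted threshold over all genes, with Benjamini-Hochberg adjusted p of 0.157 for Ccnd1 and 0.338 for Mcm6 (limma).

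Ccnd1 encodes cyclin D1, the G1 cyclin that activates Cdk4 and Cdk6. Its lowest, median and highest levels were 408, 468 and 660 normalized counts in Veh, 96.8, 352 and 464 in Dox and 268, 337 and 594 in Dox + ABT. All 8 Dox rats lay below the Veh median and 6 of them lay below the lowest Veh rat. The same held for 7 and 7 of 8 Dox + ABT rats. Dox rats 1 and 2, with 96.8 and 113, were the lowest of all 26, and the next lowest rat of any group had 268.

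The log2 difference of Ccnd1 was -0.88 (95% interval -1.36 to -0.40, p = 0.000797 by limma) for Dox against Veh, or 0.543-fold. It stayed called with any single rat left out (-0.99 to -0.67), without Dox rats 1 and 2, at -0.42 (p = 0.00432 by limma), and with the ribosomal share as a covariate, at -0.76 (p = 0.00124 by limma). Among the high-share libraries alone it was -0.35 and did not pass the call (p = 0.0309 by limma). For Dox + ABT against Veh the log2 difference was -0.48 (-0.96 to -0.0038, p = 0.0483 by limma) and was not called. Without the 2 Dox rats, whose deviations enter the shared estimate of the spread, the same difference was called (p = 0.000596 by limma), whereas with the ribosomal covariate it was -0.23 (p = 0.317 by limma).

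Ccnd2, the cyclin D of granule neuron precursors, and Cdk4, the kinase of both cyclins, gave no call in any comparison of the 3 groups as fitted here, and Cdk4 was called lower in Dox + ABT than in Veh with sample weights (-0.29). Normalized counts of Ccnd2 ranged from 317 to 899 among Veh, 410 to 750 among Dox and 380 to 653 among Dox + ABT rats, and its log2 difference for Dox against Veh was -0.02 (-0.37 to 0.33). Cdk4 ranged from 441 to 670, 439 to 634 and 396 to 614 normalized counts in the same order, with a log2 difference of -0.08 (-0.28 to 0.12). Both intervals held 0.

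Mcm2, Mcm3, Mcm5 and Mcm6 encode subunits of the hexameric helicase that opens DNA at origins. Mcm6 had 49.5, 66.7 and 90.1 normalized counts at the lowest, median and highest in Veh, 40.1, 53.1 and 62.2 in Dox and 37.4, 46.3 and 59.0 in Dox + ABT. All 16 treated rats lay below the Veh median, and 3 of 8 Dox and 6 of 8 Dox + ABT rats lay below the lowest Veh rat. Its log2 difference was -0.35 (-0.61 to -0.09, p = 0.00933 by limma) for Dox against Veh and -0.52 (-0.78 to -0.26, p = 0.000283, adjusted p = 0.108 by limma) for Dox + ABT against Veh. The first of these calls was lost in 16 of 26 fits with 1 rat left out, without Dox rats 1 and 2 (p = 0.0156 by limma) and with the ribosomal covariate (p = 0.0196 by limma), while the second held in both fits, with p = 0.000389 and 0.0037 by limma. Among low-share libraries alone the second was -0.36 and was not called.

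The other helicase subunits and Pcna gave no call. Normalized counts of Mcm2 ranged from 64.2 to 90.3 among Veh, 54.5 to 99.6 among Dox and 50.2 to 86.8 among Dox + ABT rats, with a log2 difference of -0.04 (-0.30 to 0.21) for Dox against Veh. Mcm3 and Mcm5 were low, with group means of 18.2 and 12.5 in Veh, 15.0 and 8.74 in Dox and 14.9 and 9.42 in Dox + ABT, and rest on few reads. Their log2 differences for Dox against Veh were -0.39 (-0.93 to 0.14) and -0.53 (-1.11 to 0.04). Pcna ranged from 270 to 378, 284 to 381 and 257 to 316 normalized counts in Veh, Dox and Dox + ABT, and its log2 difference for Dox against Veh was 0.05 (-0.10 to 0.21). Pcna was the only listed gene apart from Mki67 with a value above 0 in that comparison, and Dox rat 2 held the highest Pcna of all 26 rats, as Dox rat 1 held the highest Mcm2.

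In Dox + ABT relative to Veh, 0 of 8 genes were higher and 1, Mcm6, was lower, while 3.89% of all tested genes were higher and 3.95% lower at the same threshold. At an unadjusted p below 0.05 it was 2 of 8, Mcm6 and Ccnd1, and 22.5% of all tested genes. The median over the 8 genes was -0.21 on the log2 scale, and that over all tested genes was -0.00086. Dox and Dox + ABT did not differ at the threshold in any of the 8 genes, with 2.32% of all tested genes higher and 1.71% lower in Dox. By limma 0 of the 8 had an unadjusted p below 0.05 in that comparison, beside 12.7% of all tested genes. The log2 difference of Ccnd1 there was -0.40 (p = 0.12 by limma), and it was -0.53 (p = 0.0251) with the ribosomal covariate, -0.64 (p = 0.031) in low-share libraries and 0.06 (p = 0.662) without Dox rats 1 and 2, by limma in each. Both treated groups were compared with the same Veh rats, so the comparisons are not independent of each other.

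**Figure D2:**
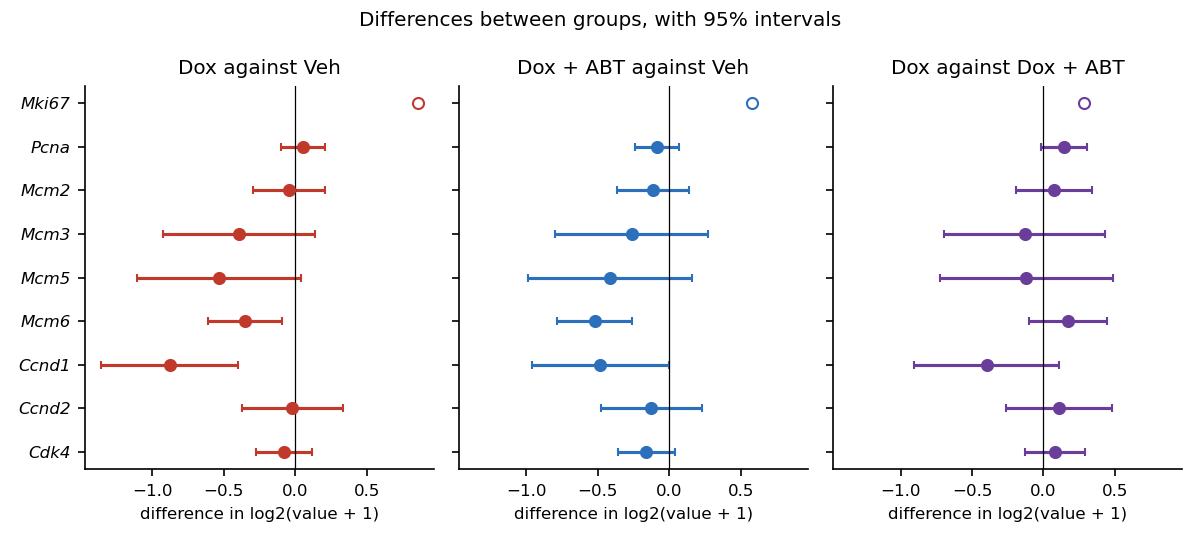
Differences between groups in mean log2(value + 1) of the 9 genes, for Dox against Veh, Dox + ABT against Veh and Dox against Dox + ABT. Bars are 95% intervals from limma for the 8 tested genes, and Mki67, chosen by its difference, is an open point without a bar at 0.86, 0.58 and 0.28.

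A wider set of cell cycle genes was counted in the same fit. It held 85 tested genes besides Mki67, with 30 of 34 listed for S phase and replication, 35 of 48 for G2 and mitosis and 20 of 24 for G1 cyclins, kinases and E2F. The last, called the G1 list below, also holds Wee1, which acts before mitosis. In Dox relative to Veh 1 was higher and 2 were lower, and 13 had an unadjusted p below 0.05, beside 1.02%, 1.85% and 10.2% of all tested genes. The higher gene was Fen1, the flap endonuclease that trims Okazaki fragments, with means of 238 in Dox and 195 normalized counts in Veh and a log2 difference of 0.28 (p = 0.00962, adjusted p = 0.34 by limma), a call lost in 16 of 26 fits with 1 rat left out. Prc1, which bundles microtubules of the central spindle, was lower by -0.95 (p = 0.00562, adjusted p = 0.304 by limma), from a Veh mean of 12.7 to a Dox mean of 7.16, and the call was lost without Veh rat 5 or without Dox rat 2, 10 or 14. Wee1, the kinase that holds Cdk1 inactive before mitosis, was lower by -0.21 (p = 0.00634, adjusted p = 0.307 by limma), and the call was lost without any of Veh rats 1, 4, 9 and 12 or Dox rats 1, 5 and 10, and with the ribosomal covariate (-0.18). Racgap1, a centralspindlin subunit, differed by -0.64 (p = 0.0179 by limma) and was not called. Without Dox rats 1 and 2, 0 of the 85 genes were called in this comparison and 6 had an unadjusted p below 0.05 (limma), and in that fit 0.372% of all tested genes were higher, 0.789% lower and 4.89% below 0.05.

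Genes on either side of 0 were found in each list, and the G2 and mitosis list held the larger share below 0. Medians of the log2 difference for Dox against Veh were 0.07 for S phase and replication, with 17 of 30 above 0, -0.08 for G2 and mitosis, with 10 of 35 above 0, and 0.09 for the G1 list, with 14 of 20 above 0. The mitotic genes that are used beside Mki67 to score division, Top2a, Ccnb1, Cdc20 and Birc5, were low and gave no call for Dox against Veh, with log2 differences of -0.58, -0.04, -0.38 and -0.01. Top2a, the topoisomerase of mitotic chromosomes and a target of Dox, had 1.49 to 8.99 normalized counts among Veh rats, 0 to 7.69 among Dox rats and 2.36 to 16.1 among Dox + ABT rats. In Dox rat 1, the rat with the most Mki67, Top2a was at 0, and in Dox rat 2 it was at 5.87. The summed level of the S phase and replication list was 5320 and 5481 normalized counts in these rats, above the 4225 to 5195 of the other 24, whereas that of the G2 and mitosis list was 1447 and 1340, within their 1067 to 1528. Both rats lay above all other 24 for 3 of 30 genes of the S phase list (Pole, Fen1 and Uhrf1), 2 of 35 of the G2 and mitosis list (Cdc25c and Ncapd2) and 2 of 20 of the G1 list (Foxm1 and Myc), and below them for 0 in each, beside 6.43% and 4.71% of all tested genes. Apart from Fen1 and Myc these genes were named after their values were seen. Ccna2 and Rrm2 had means below 5 and were not tested, with Ccna2 at 1.10 to 6.79 in Veh, 3.64 to 13.1 in Dox and 0 to 9.91 in Dox + ABT.

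Other named genes of the cycle were also not called for Dox against Veh. The helicase subunits Mcm4 and Mcm7 differed by -0.08 and -0.15 on the log2 scale, Ccnd3 by -0.08, Cdk2 by 0.09, Cdk6 by 0.46 and Myc, a transcription factor that promotes entry into the cycle, by 0.42 (p = 0.011 by limma). In Dox + ABT relative to Veh, 0 of the 85 genes were higher and 1 was lower, with 11 at an unadjusted p below 0.05 (limma), beside 3.89%, 3.95% and 22.5% of all tested genes. This gene was Mcm7, with a mean of 223 against 300.5 normalized counts and a log2 difference of -0.42 (p = 0.000779, adjusted p = 0.109 by limma). Among low-share libraries alone Mcm7 differed by -0.30 and was not called. Ccne2 (0.56), Slbp (0.27), Kif20a (0.49) and Rfc3 (-0.50) had the next smallest p and were not called. In Dox relative to Dox + ABT, Fen1 (0.34, p = 0.00294) and the clamp loader subunit Rfc5 (0.29, p = 0.00321) were higher and Prc1 (-1.02, p = 0.00492) was lower, by limma without adjustment. Top2a (-1.07) and Tk1 (0.50) followed without a call. Of the 85, 10 had an unadjusted p below 0.05, and the shares of all tested genes were 2.32% higher, 1.71% lower and 12.7% below 0.05. Without Dox rats 1 and 2 this last comparison held 0 calls among the 85, with 11 at an unadjusted p below 0.05 (limma), beside 1.82%, 1.15% and 11.8% of all tested genes.

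**Figure D3:**
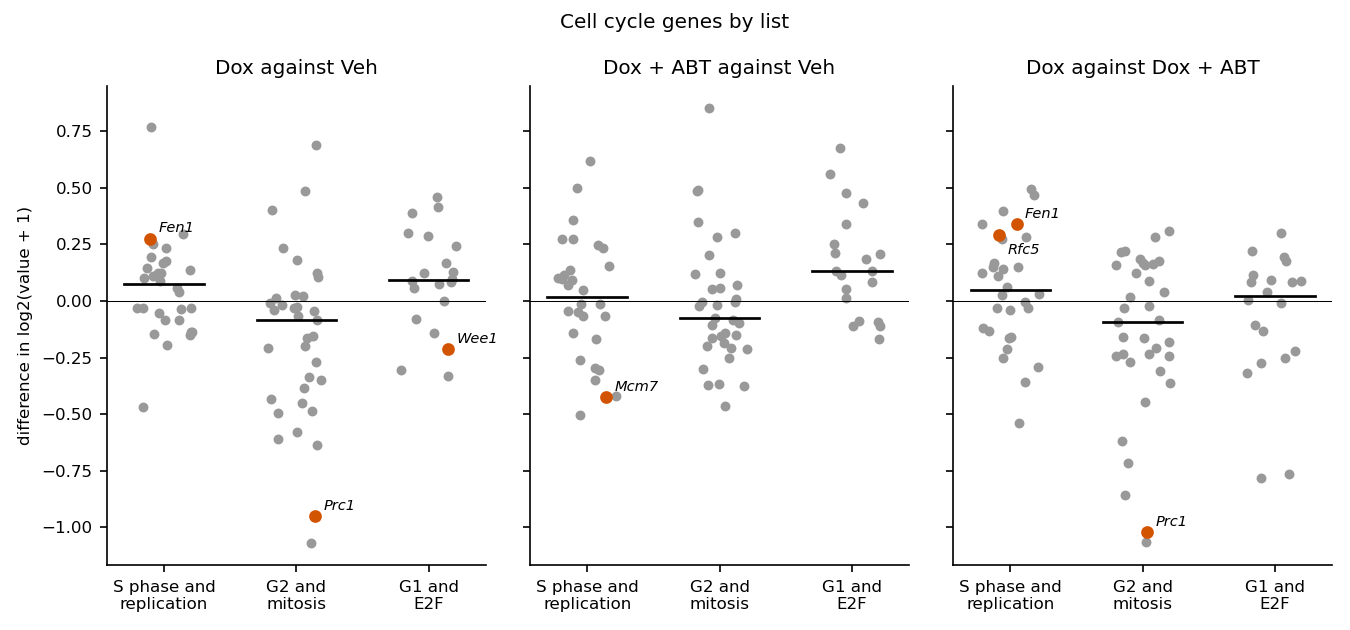
Differences in mean log2(value + 1) of 85 cell cycle genes in 3 lists for the 3 comparisons. Each point is 1 gene, lines are list medians, and orange points, named, passed p below 0.01 by limma without adjustment, which is 3, 1 and 3 genes in the order of the panels.

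Cdkn1a was high in the same 2 rats as Mki67. Its level was 510 normalized counts in Dox rat 1 and 530 in Dox rat 2, whereas the other 24 rats ranged from 30.8 to 109 with a median of 65.0. The log2 difference for Dox against Veh was 1.20 (p = 0.0027, adjusted p = 0.242 by limma), and without these 2 rats it was 0.51 (p = 0.0378 by limma). Against Dox + ABT it was 1.10 (p = 0.00768 by limma), and that call was lost without either of these rats or without Dox + ABT rat 3, 5 or 6. Of the 5 tested cell cycle inhibitors only Cdkn1a was called for Dox against Veh, and Cdkn2b and Cdkn2c differed by -0.53 and -0.22.

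Whether the other genes followed Mki67 from rat to rat was tested within groups, on deviations and not on the difference between groups that chose it. Dox rats 1 and 2 weigh on both, so the called slope is also given without them. Of the 8 genes, 0 had a positive slope on log2 Mki67 and 1 had a negative slope at an adjusted p below 0.05 (limma, group terms in the fit), while 13.8% of all other tested genes had a positive and 14.4% a negative slope. The negative slope was that of Ccnd1, at -0.74 per unit of log2 Mki67 (SE 0.11, adjusted p = 3.38e-05 by limma). It was -0.34 without Dox rats 1 and 2 (adjusted p = 0.0248 by limma) and -0.86 with the ribosomal covariate (adjusted p = 0.00216 by limma). Slopes of Pcna, Mcm2, Mcm3 and Mcm5 were 0.05, 0.06, 0.02 and 0.13, and those of Mcm6, Ccnd2 and Cdk4 were -0.12, -0.15 and -0.07.

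As correlations of deviations from group means over 26 rats, 8 relations were computed, and 1 passed adjustment. Ccnd1 gave a Pearson r of -0.81 (p = 0.00016, adjusted p = 0.00128) and a Spearman rho of -0.71 (p = 0.00021, adjusted p = 0.00168) in a two-sided permutation test within groups. The 2 rats farthest from the median of Mki67 were Dox rats 1 and 2, and without them r was -0.55 (permutation p = 0.0065, adjusted p = 0.052) and rho was -0.59 (adjusted p = 0.0406 by permutation). Within the 16 low-share libraries, which include Dox rats 1 and 2, r was -0.81 (permutation p = 0.0517), and within 9 high-share libraries of Veh and Dox it was -0.73 (permutation p = 0.0357, adjusted p = 0.203). Thus the sign was the same within both kinds of library, and the adjusted threshold was not reached within either. For the other 7 genes r ranged from -0.30 for Mcm6 to 0.23 for Pcna, with adjusted p of 0.452 or more by permutation.

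**Figure D4:**
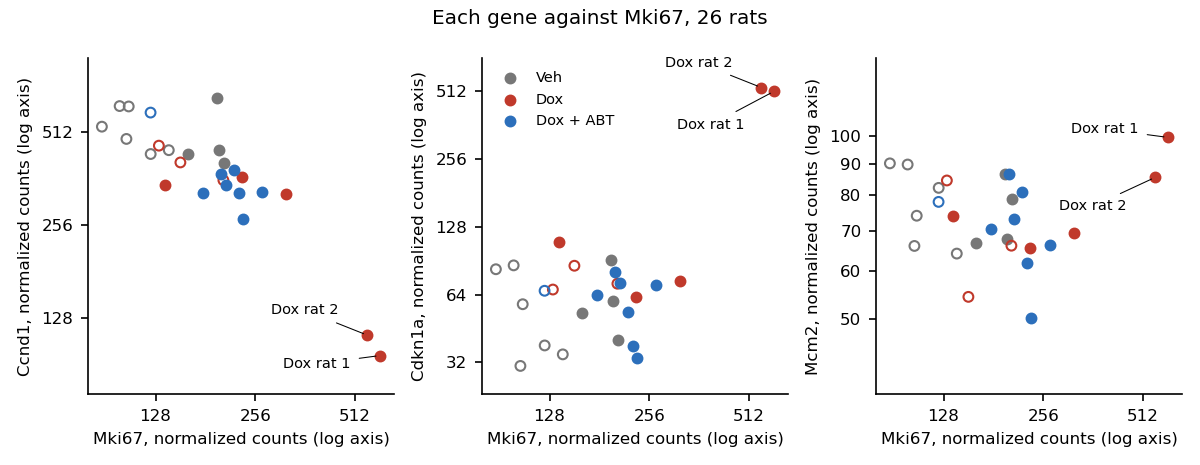
Ccnd1, Cdkn1a and Mcm2 against Mki67 in each of 26 rats, normalized counts on log axes, with open points for libraries with a high ribosomal share. Dox rats 1 and 2 hold 610 and 558 of Mki67 with 96.8 and 113 of Ccnd1 and 510 and 530 of Cdkn1a.

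In the wider set, 13 of the 85 genes had a positive and 1 a negative slope on Mki67 at the adjusted threshold, shares of all 15594 genes being those given above. Mcm4 (slope 0.34, adjusted p = 0.0175), Cdk2 (0.55, adjusted p = 0.0143) and Myc (0.28, adjusted p = 0.0365) were among them by limma, Cdk2 not without Dox rat 14 and Myc not in 7 of 26 fits with 1 rat left out nor without Dox rats 1 and 2. Uhrf1, a factor that maintains DNA methylation through replication and was named after its values were seen, had a slope of 1.07, with 306 and 321 normalized counts in Dox rats 1 and 2 and 24.6 to 174 in the other 24. With the ribosomal share as a covariate 3 of the 85 genes, Pole, Kif15 and Lin54 (named after their values were seen), had a positive and 0 a negative slope, beside 1.51% and 1.46% of all genes, so that Cdk2, Myc and Uhrf1 were not called, and the slope of Mcm4 was -0.05 in that fit and -0.0022 in low-share libraries alone. Without Dox rats 1 and 2 the counts were 10 and 3, beside 14.9% and 15.5% of all genes. Cdkn1a had a slope of 0.75 (adjusted p = 0.0188 by limma), which was -0.21 without those 2 rats, and with the ribosomal covariate it was 0.95 and was not called. For Cdkn1c, another inhibitor, named after its values were seen, the slope was called at -0.47, and at -0.74 without those 2 rats. The slope of Cdkn1c was not called with the ribosomal covariate.

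The genes most like Mki67 in pattern, by the moderated t of the slope over 26 rats, were Casp2, Nfrkb, Zzz3, LOC100909712, Fbn1, Zfp512b, Setd1a, Rev1, Mss51 and Khdc4. Slopes were 0.78 for Casp2, a caspase, 0.61 for Nfrkb, 0.52 for Zzz3, 0.97 for the extracellular matrix gene Fbn1 and 0.60 for Rev1, a translesion DNA polymerase. None of the 10 positive genes belongs to the cell cycle lists. The most negative after Serpinh1, a collagen chaperone (-0.73), were Btbd17, Fkbp4, Entpd2 and Mfge8. With the ribosomal covariate the counts over all genes fell from 2145 positive and 2242 negative to 236 and 227, so most of these slopes did not pass once the make-up of the library was in the fit.

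Markers of other cell types, whether or not they divide, were read beside Mki67. The shares of all tested genes were 1.02% higher and 1.85% lower for Dox against Veh, with 10.2% at an unadjusted p below 0.05, as above. Of 14 neural stem and progenitor markers, 0 were higher and 2 lower in Dox relative to Veh, Id4 (-0.38, p = 0.0035 by limma), an antagonist of proneural factors, and Thrsp (-0.58, p = 0.0076 by limma), while Prom1 differed by -0.56 and was not called. The call of Id4 was lost without Dox rat 1 or 2, and that of Thrsp in 11 of 26 fits with 1 rat left out and with the ribosomal covariate (-0.44). In low-share libraries alone 3 of the 14, Fabp7, Prom1 and Id4, were called lower and 0 higher, beside 2.33% and 2.42% of all genes. In high-share libraries alone 2, Hopx and Thrsp, were called lower and 1, Fabp7, higher, beside 1.89% and 1.67% of all genes. Veh rats had summed levels of 2889 to 4712 for this list, Dox rats 2546 to 3899 and Dox + ABT rats 2988 to 3739. Of 10 markers of newborn neurons, 0 were higher and 1, Igfbpl1, was lower (-0.94, p = 0.0019 by limma), with Stmn1 at -0.38 and Sstr2 at -0.65, while 4 of the 10 lay above 0. Igfbpl1 was not called in low-share libraries alone (-0.77), where Stmn1 was called lower. Of 11 oligodendrocyte precursor markers, 0 were called in either direction, with 2 at an unadjusted p below 0.05, and Olig2 differed by -0.32, C1ql1 by -0.32 and Matn4 by -0.44, while the list had a median of -0.04, a maximum of 0.35 and 3 of 11 above 0. In high-share libraries alone 2 of the 11, Olig2 and C1ql1, were called lower.

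Of 11 microglial markers, 0 were higher and 5 lower in Dox, among them Aif1 (-0.61, p = 0.00237) and Cx3cr1 (-0.64, p = 0.00274) by limma. Without Dox rats 1 and 2, 0 of the 11 were called and 3 had an unadjusted p below 0.05 (limma). In that fit 0.372% of all tested genes were higher, 0.789% lower and 4.89% below 0.05. Within groups 8 of the 11 had a negative slope on Mki67 at the adjusted threshold and 0 a positive one, beside 14.4% and 13.8% of all genes, and with the ribosomal covariate 3 had a negative one, beside 1.46% of all genes. Negative slopes were also called for 4 of 14 neural stem, 3 of 11 oligodendrocyte precursor, 2 of 10 newborn neuron and 4 of 11 endothelial and mural markers. With the ribosomal covariate these were 2, 1, 1 and 2. Positive slopes were called for 0, 2, 1 and 0 in the same order and for 2 of 8 granule neuron markers. The newborn neuron marker with a positive slope was Dcx, which stayed called with the ribosomal covariate. Summed levels of the list were 5462 to 9294 in Veh rats, 5372 to 7564 in Dox rats and 5440 to 8953 in Dox + ABT rats. Of 11 endothelial and mural markers, 1 was higher (Kdr, 0.81, p = 0.0005 by limma, not called in low-share libraries alone, at 0.69) and 2 were lower, Emcn by -0.85 and Slco1a4 by -0.96, of which neither was called without Dox rats 1 and 2 (-0.37 and -0.47) and Emcn was not called without Dox rat 2 alone, and summed levels were 1835 to 5280, 2069 to 3791 and 1915 to 3618 in the 3 groups. The red cell markers Ahsp, Alas2 and Slc4a1 differed by 2.01, 1.21 and 1.95, and the list gave 0 calls in 6 and 3 at an unadjusted p below 0.05 (limma), beside 10.2% of all tested genes. With the ribosomal covariate 6 of 6 were higher, with a median log2 difference of 1.59, in high-share libraries alone 4 of 6 were, and without Dox rats 1 and 2 it was 1, Ahsp. In the same fits 1.07%, 1.67% and 0.372% of all tested genes were higher. The list had summed levels of 2331 to 26017 in Veh, 3615 to 129992 in Dox and 3176 to 11587 in Dox + ABT. The 2 highest sums, 129992 and 92739, were those of Dox rats 7 and 5, both high-share libraries, and the next Dox rat had 29133. No fit left out these 2 rats together. Leukocyte, granule neuron and choroid plexus markers gave 0 calls in 5, 8 and 4 genes for Dox against Veh by limma, with 0, 0 and 0 at an unadjusted p below 0.05. The leading genes were Coro1a (0.17), Cd52 (0.91) and Lyz2 (-0.10), then Pdzd2 (0.36), C1ql2 (-0.17) and Trpc6 (-0.13), then Aqp1 (0.68), Ttr (-0.54) and Clic6 (-0.54). In low-share libraries alone 1 of the 5 leukocyte markers, Coro1a, was called higher, beside 2.42% of all genes. In Dox + ABT relative to Veh, where 3.95% of all tested genes were lower, 2 of 8 granule neuron markers were lower, C1ql2 (-0.46, p = 0.000697 by limma) and C1ql3 (-0.55), as were 2 of 11 oligodendrocyte precursor markers, Cspg4 and C1ql1, 2 of 11 microglial markers, Csf1r and Trem2, 1 of 14 neural stem markers, Thrsp, and 1 of 10 markers of newborn neurons, Neurod1. With the ribosomal covariate C1ql2 was called and the others were not, and in low-share libraries alone C1ql2 was not called either (-0.18). C1ql3, Cspg4, Csf1r, Trem2, Neurod1, Dcx, Fabp7 and Hopx were named after their values were seen. The part of these cells in the levels of Mki67, Ccnd1, Mcm6 and Mcm7 was not tested.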

How the data were processed

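RNA from the DG of 26 rats was sequenced on the Ion Proton after poly(A) selection. Per the labels and methods, the authors aligned reads to rn6 with STAR 2.5.3a in Partek Flow, and the deposited values are a normalized signal, counts divided by the Median Ratio factor of each library. Because these are not raw counts and fell within 0.05 of whole reads for only 78.5% to 81.1% of low values of genes with 1 row, no count model was used. Rows were summed by gene ID (24012 rows, 17910 genes). Differences were tested on log2(value + 1) where the mean was 5 or more, with limma 3.58.1 (lmFit, contrasts.fit, eBayes with a variance trend, two-sided, R 4.3.3), 3 groups in 1 fit, and called at p below 0.01, with Benjamini-Hochberg adjustment over 15595 genes. Slopes on Mki67 were called at an adjusted p below 0.05. Correlations used 100000 permutations within groups (seed 1, Python 3.11.15, scipy 1.17.1, numpy 2.4.6), and figures matplotlib 3.10.9. The fits were tested on simulated data. Groups came from the sample labels, and p-values measure the spread between rats.

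The genes and lists were chosen with earlier results of these data known. Named were the listed genes, a fixed set of cell cycle genes, the 5 cell cycle genes with the smallest p in each comparison, the 3 with the smallest p for Dox against Veh of each other list (1 of these is not reported here), and the 10 most positive and 5 most negative slopes. Alternatives were other pseudocounts, filters, weights, scalings, covariates, single transcript rows, a replicate block, 2 groups alone and each rat left out. The split by ribosomal share, libraries of 1 kind alone and leaving out Dox rats 1 and 2 were chosen after seeing the data. The authors' table of sample attributes was not used.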

Additional observations from a re-analysis of the deposited data

Results flagged for a closer look

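Among 66 sets of rats (1 gene in 1 group each), 5 held a lowest or highest rat set apart from its own group by Dixon's ratio, where chance flags about 1 set in 20. Pcna was lowest in Dox + ABT rat 12, at 257 normalized counts with the next rat at 299. Ccnd1 was highest in Dox + ABT rat 4, at 594 with the next at 387, and Mcm7 was highest in the same rat, at 280 with the next at 234. This rat had the only Dox + ABT library with a high ribosomal share, and the part of that share in these values was not tested. Ccna2 was highest in Dox rat 5, at 13.1 with the next at 6.98. Birc5 was highest in Veh rat 10, at 26.8 with the next at 16.3. The ratio did not mark Dox rats 1 and 2 for Mki67, Ccnd1 or Cdkn1a, since it measures the gap to the nearest rat and these 2 lie together.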

How the results depend on the processing

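The log2 difference of Mki67 between Dox and Veh stayed above 0 in every alternative run, from 0.67 to 0.99 with single rats left out. The calls of the 8 genes in Dox against Veh were 2, and 1 with no filter, robust eBayes, trimmed mean or quantile scaling, the replicate block, single rows, 2 groups alone, Dox rats 1 and 2 left out, the ribosomal covariate and low-share libraries, 0 in high-share libraries, and 1 to 2 with a rat left out. In Dox + ABT against Veh the 1 call became 3 with arrayWeights (Ccnd1 and Cdk4 added), 2 with 2 groups alone or without Dox rats 1 and 2, and 0 in low-share libraries, and stayed 1 with a rat left out. Dox against Dox + ABT gave 0 in every fit. Wider cell cycle calls in Dox against Veh, 3, became 9 with arrayWeights, 1 with 2 groups alone, 0 without Dox rats 1 and 2 or in high-share libraries, and 1 to 5 with a rat left out. In Dox + ABT against Veh the 1 call became 2 (pseudocount of 5, quantile scaling, 2 groups alone, without Dox rats 1 and 2), 3 (no variance trend, trimmed mean scaling, replicate block), 16 (arrayWeights), 9 (kind of library, a split that held only Veh rats 10 and 11 apart), 0 (low share), and 1 to 4 with a rat left out. In Dox against Dox + ABT the 3 calls became 7 (arrayWeights), 0 (without Dox rats 1 and 2), 6 (low share), and 2 to 6 with a rat left out. Genes with a slope on Mki67, 4387, became 1343 with the replicate block, 463 with the ribosomal covariate, 403 in low-share libraries, and 3459 to 5188 with a rat left out. Pearson correlations past adjustment, 1, became 0 without Dox rats 1 and 2 or within either kind of library, 2 with the ribosomal covariate (Ccnd2 added), and stayed 1 with a rat left out. The causes were not tested. Signs of slopes were followed for the listed genes and for those named by rule from the cell cycle and marker lists. Of these, the called slopes of Cdkn1a (-0.21 without Dox rats 1 and 2) and Mcm4 (-0.049 with the ribosomal covariate, -0.0022 in low-share libraries) changed sign. The uncalled slopes of Ccnd2, Cdk4, Mcm2, Mcm3, Mcm6 and Pcna took both signs over the alternatives run. Slopes of the 6 red cell markers, none called, were all below 0 in the main fit and all above 0 with the ribosomal covariate. Calls over all genes, higher and lower, moved for Dox against Veh from 159 and 289 to 1442 and 1708 (arrayWeights), 596 and 781 (kind of library), 401 and 364 (replicate block), 58 and 123 (without Dox rats 1 and 2), 378 and 364 (low share) and 261 and 295 (high share). For Dox + ABT against Veh they moved from 606 and 616 to 2425 and 2872 (arrayWeights), 1451 and 1682 (kind of library), 100 and 114 (ribosomal covariate) and 94 and 78 (low share), and for Dox against Dox + ABT from 362 and 267 to 938 and 674 (arrayWeights), 249 and 154 (replicate block) and 720 and 561 (low share). Replicate numbers were not treated as pairs of rats in the main fit. Of 16 same-number pairs, 6 had correlated deviations above 0.1 (-0.22 to 0.44). This cannot decide whether the numbers mark a shared condition, since pairs with unlike numbers were not computed. Genes near the filter, such as Mcm3, Mcm5, Top2a and Prc1, rest on few reads.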
